A study of Mus musculus with 8 samples.

Results

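The receptors through which blood progenitors sense growth factors were followed in mouse MLL-AF9 cells treated with IOX5, an inhibitor of the prolyl hydroxylases (PHDs) that mark hypoxia-inducible factors (HIFs) for destruction. They are 9 genes of the 54838 listed in the count files, chosen by name: *Kit* and *Flt3*, which encode receptor tyrosine kinases; *Csf2rb*, *Csf2rb2*, *Csf2ra* and *Il3ra*, which encode the chains of the IL-3 and GM-CSF receptors; and *Csf3r*, *Il6ra* and *Epor*, which encode receptors for G-CSF, IL-6 and erythropoietin. All 9 passed the filter on low counts, as did 12405 genes in all.

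The iMLL-AF9 cells carry a doxycycline-inducible allele of the MLL-AF9 fusion oncogene, and their mice were of the C57BL/6 strain. Labels give bone marrow as the tissue, leukaemic stem cells as the cell type and WT as the genotype of all 8 samples, while the series' design calls the cells preleukaemic. There were 4 samples treated with the solvent DMSO (the controls) and 4 treated with IOX5, numbered 1 to 4 in each group. Animal age, IOX5 dose and treatment time for these RNA samples, the cytokines in their medium and what the replicate numbers stand for are not given in the sources used here, so the p-values measure the spread between these samples, which may be technical.

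Poly(A) RNA was sequenced in single-end reads, of which 12343770 to 14116054 per DMSO sample and 11351507 to 12708888 per IOX5 sample were assigned to genes. Levels are given as CPM (assigned reads scaled to library size, with edgeR's TMM factors). As a check of the treatment, all 10 HIF target genes on a list had a higher fitted level with IOX5. 7 of them passed edgeR's test at an adjusted p below 0.05, beside 2.02% of all genes tested. *Egln3*, *Slc2a1* and *Vegfa* did not (edgeR adjusted p = 0.136, 0.0689 and 0.0794). All 10 passed when the replicate number was a term of the fit, beside 20.7% of all genes. The list was chosen with earlier results of these data known. *Ankrd37*, which had the largest fold change of the 10, lay at 5.28 to 6.94 CPM with DMSO and at 13.5 to 18.2 CPM with IOX5 (log2 fold change 1.38 ± 0.145 (SE, n = 4 per group), edgeR adjusted p = 0.0143).

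These receptors carry growth and survival signals. KIT, the receptor for stem cell factor, and FLT3 phosphorylate themselves when bound by their ligands. The other receptors have no kinase of their own and use JAK kinases, which activate STAT proteins, chiefly STAT5 or STAT3, alongside the RAS-MAPK and PI3K pathways. IL-3, GM-CSF and IL-5 each have a specific alpha chain and share the beta common chain, the product of *Csf2rb*. Mice have a second beta chain gene, *Csf2rb2*, whose product serves IL-3 alone. IL-6 binds its alpha chain and then gp130, the product of *Il6st*.

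Both beta chain genes lie on chromosome 15 (GRCm38), *Csf2rb* at chr15:78325752-78353847 on the plus strand and *Csf2rb2* at chr15:78282507-78305721 on the minus strand. Their coding sequences, of 2688 and 2634 bases, were 95.2% identical over the aligned bases. The longest identical stretch ran for 242 bases, from base 2083 to base 2324 of both coding sequences, and is longer than a read of 85 bases. The last 40 bases of that stretch and the 40 coding bases that follow are shown because they mark where reads can again be told apart. Capitals mark the 2 positions at which the genes differ.
Csf2rb, chr15:78348779-78348858, plus strand: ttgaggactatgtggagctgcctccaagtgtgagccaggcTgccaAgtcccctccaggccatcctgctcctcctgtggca
Csf2rb2, chr15:78284590-78284669, minus strand: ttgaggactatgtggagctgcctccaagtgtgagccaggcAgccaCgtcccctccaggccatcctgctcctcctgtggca
Of all windows of 85 bases in the GENCODE transcripts, 5.93% of those of *Csf2rb* and 8.79% of those of *Csf2rb2* occur in the other gene. Reads from these windows align to both places and were set apart in the deposited counts, so the values of both genes are uncertain at least to that extent. Only exact matches were counted, and windows that differ at few bases were not examined.

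DNA upstream of the genes was searched for the core of the HIF-binding element (ACGTG or GCGTG) and for the STAT element TTCNNNGAA, on both strands, in the 250 bases before each RefSeq gene start (GRCm38.p6). Windows were found for 8 of the 9 genes; *Csf2rb* had no entry. Sequences are shown for the receptor tyrosine kinase genes and for *Csf2rb2*, whose levels moved together across samples (given further on). Capitals mark a match, and bases that lie in the GENCODE gene are left out.
Kit, chr5:75574737-75574915, plus strand: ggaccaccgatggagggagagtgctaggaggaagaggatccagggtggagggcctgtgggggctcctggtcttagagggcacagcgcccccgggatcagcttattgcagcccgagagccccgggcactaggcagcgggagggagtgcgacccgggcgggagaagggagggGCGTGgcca
Flt3, chr5:147400490-147400739, minus strand: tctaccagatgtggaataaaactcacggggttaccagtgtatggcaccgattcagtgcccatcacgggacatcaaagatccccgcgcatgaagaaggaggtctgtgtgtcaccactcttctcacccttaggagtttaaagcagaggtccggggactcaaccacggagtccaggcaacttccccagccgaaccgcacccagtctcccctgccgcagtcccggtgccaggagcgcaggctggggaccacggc
Csf2rb2, chr15:78305722-78305971, minus strand: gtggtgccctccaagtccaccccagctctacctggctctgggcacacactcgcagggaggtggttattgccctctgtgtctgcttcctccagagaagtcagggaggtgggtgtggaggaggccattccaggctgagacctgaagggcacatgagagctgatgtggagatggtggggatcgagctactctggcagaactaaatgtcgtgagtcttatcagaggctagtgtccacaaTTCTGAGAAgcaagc
The *Kit* window held 1 GCGTG, 80 bases before the RefSeq gene start, which lies inside the GENCODE gene and so beyond the printed bases. The *Csf2rb2* window held 1 TTCNNNGAA, 15 bases before the start, and the *Flt3* window held neither motif. Among the other genes, *Il3ra* had 2 matches to GCGTG, *Csf2ra* had 1 to ACGTG, and *Il6ra* had 1 CACGTG, which reads as ACGTG on both strands. *Csf3r* and *Epor* had none. Of 32851 mouse windows of this length, 38.6% hold ACGTG or GCGTG and 7.02% hold TTCNNNGAA. A match is a string of letters and not evidence of binding.

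Levels of the 9 receptors spanned a wide range. Per kilobase of exon, mean levels in the DMSO samples were 69.8 CPM for *Csf2rb*, 40.8 for *Csf2rb2* and 33.9 for *Csf2ra*. Then came *Csf3r* at 11.4, *Kit* at 8.37, *Il6ra* at 7.86 and *Il3ra* at 6.08 CPM per kilobase. *Epor* at 1.19 and *Flt3* at 0.226 CPM per kilobase were lowest. The sample ranges of 4 neighboring pairs in this order overlapped: *Csf2rb2* and *Csf2ra*, *Csf3r* and *Kit*, *Kit* and *Il6ra*, and *Il6ra* and *Il3ra*. With IOX5 the order per kilobase was the same except that *Il3ra* (7.80) stood above *Il6ra* (7.19). Those ranges overlapped as well.

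Without the replicate number in the fit, no receptor was called different between IOX5 and DMSO. edgeR's quasi-likelihood test called 0 of 9 (2.02% of all genes tested were called), and the lowest adjusted p was 0.28, for *Csf2rb2*. An unadjusted edgeR p below 0.05 was found for 0 of 9 receptors, beside 2506 of all 12405 genes tested. DESeq2 called 0 of the 7 receptors for which it gave an adjusted p (10.4% of all genes). Its unadjusted p was below 0.05 for 1 receptor, beside 2479 genes in all. limma voom called 0 of 9 (1036 of 12405 genes), with 1 unadjusted p below 0.05, beside 3278 of all genes. IOX5 and DMSO samples overlapped for all 9 receptors, whereas they did not overlap for 14.2% of all genes tested.

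Within replicate numbers the picture was more regular. *Kit*, *Flt3*, *Csf2rb*, *Csf2rb2*, *Il3ra* and *Epor* were higher with IOX5 in 4 of 4 numbers, as were 21.3% of all genes tested. *Il6ra* was lower in 4 of 4, as were 19.9% of all genes. *Csf2ra* and *Csf3r* were higher in 2 of 4. Samples that share a number deviated together from their group means, and with the number as a block edgeR called 5 of the 9 receptors: *Kit*, *Flt3*, *Csf2rb*, *Csf2rb2* and *Il3ra* rose, and none fell. Of all genes tested 20.7% were called in that fit, 11.2% higher and 9.43% lower. The median log2 fold change with the block was 0.37 over the 9 receptors and 0.014 over all genes tested.

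**Figure D1:**
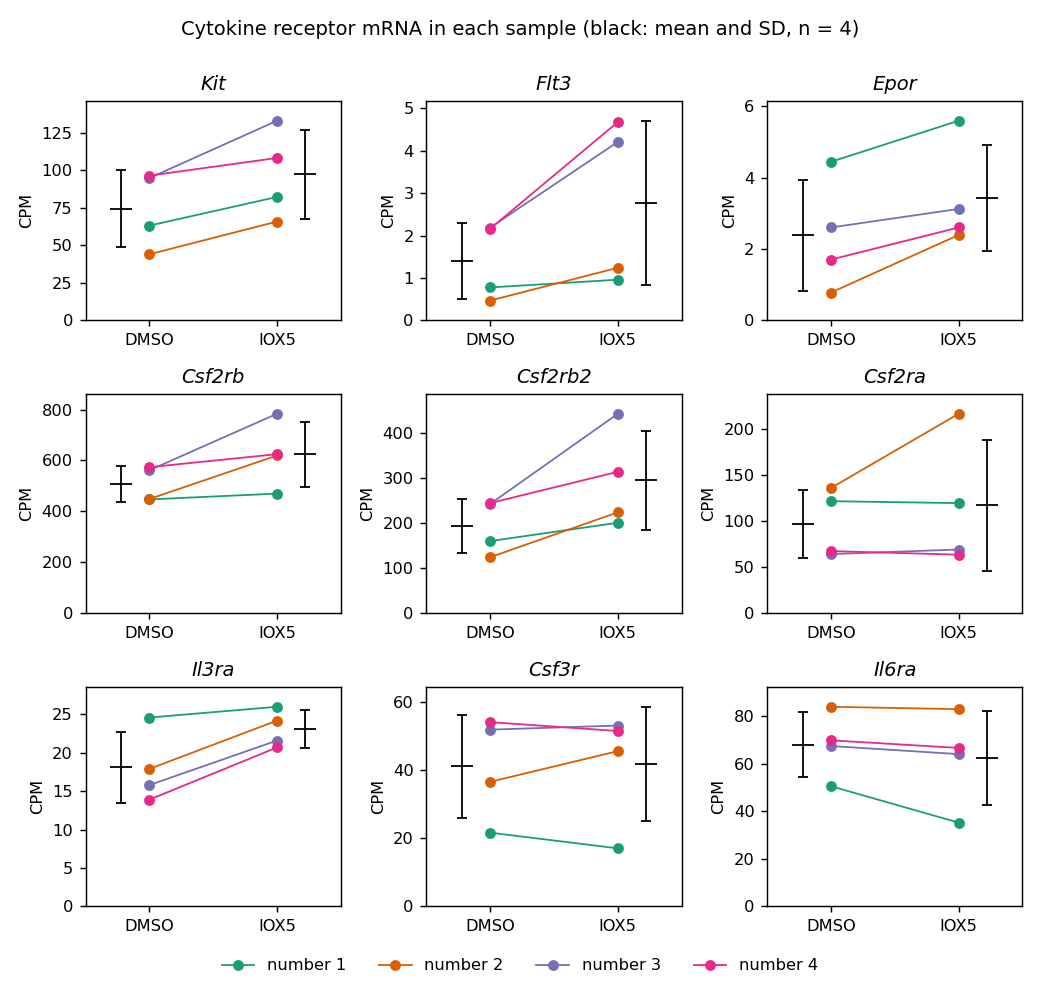
CPM of the 9 receptor genes in each sample (y axes, linear from 0), with DMSO on the left and IOX5 on the right of each panel; colored lines join samples with the same replicate number, and black bars give the mean and SD of the 4 samples. Lines for Kit, Flt3, Epor, Csf2rb, Csf2rb2 and Il3ra all rise, yet in every panel the IOX5 range overlaps the DMSO range.

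**Figure D2:**
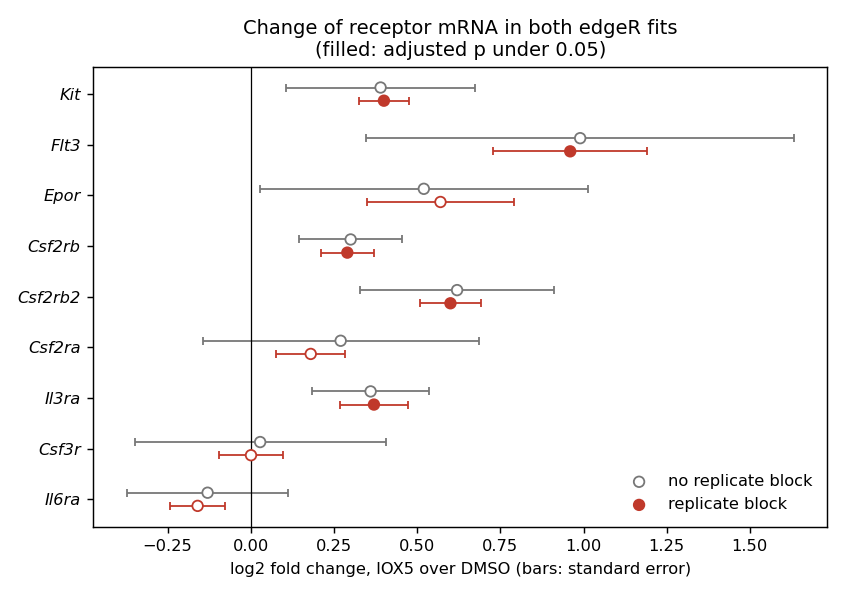
Log2 fold change of IOX5 over DMSO (x axis) for each receptor gene, with standard errors as bars, from edgeR without the replicate block (gray) and with it (red); filled points have an adjusted p below 0.05. Estimates of both fits are close (Kit 0.39 and 0.40), while the standard errors are smaller with the block (Kit 0.284 and 0.0744).

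*Kit* (ENSMUSG00000005672, chr5:75574916-75656722, plus strand) is the defining receptor of stem and progenitor cells and of mast cells. Its levels were 63.1, 44.0, 94.8 and 96.4 CPM in DMSO samples 1 to 4 and 82.2, 65.8, 133.0 and 108.2 CPM in IOX5 samples 1 to 4. Number 2 was lowest and numbers 3 and 4 were highest in both groups, and the groups overlapped. The mean was 74.5 ± 25.5 CPM (SD, n = 4) with DMSO and 97.3 ± 29.5 CPM with IOX5. edgeR gave a log2 fold change of 0.39 ± 0.284 (SE; adjusted p = 0.489) without the block and of 0.40 ± 0.0744 (adjusted p = 0.00259) with it. *Kit* was called in all 4 blocked fits that left out a replicate number, with edgeR adjusted p from 0.00151 to 0.0328.

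*Flt3* (ENSMUSG00000042817, chr5:147330741-147400489, minus strand), the receptor of multipotent and dendritic cell progenitors, was close to the limit of detection. It had 11, 6, 27 and 28 reads in the DMSO samples, or 0.775, 0.466, 2.19 and 2.16 CPM. IOX5 samples had 12, 14, 54 and 54 reads, or 0.959, 1.24, 4.21 and 4.68 CPM. Numbers 3 and 4 were high in both groups, so that DMSO samples 3 and 4 stood above IOX5 samples 1 and 2. Fitted log2 fold changes were 0.99 ± 0.643 (edgeR adjusted p = 0.431) without the block and 0.96 ± 0.232 (adjusted p = 0.0113) with it. DESeq2 with the block did not call it (adjusted p = 0.0916), and edgeR with the block lost the call without number 3 (adjusted p = 0.0773) or number 4 (0.065).

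*Csf2rb* (ENSMUSG00000071713), the shared beta chain, was the most abundant of the 9 per kilobase. It reached 447.1, 448.7, 561.7 and 573.6 CPM with DMSO and 470.0, 619.6, 783.4 and 624.9 CPM with IOX5. IOX5 samples 2, 3 and 4 were above every DMSO sample, and IOX5 sample 1 was not. edgeR estimated a log2 fold change of 0.30 ± 0.154 (edgeR adjusted p = 0.318) without the block and 0.29 ± 0.0801 (adjusted p = 0.0233) with it. That call was lost without number 3 (edgeR with the block, adjusted p = 0.187).

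*Csf2rb2* (ENSMUSG00000071714), the IL-3 beta chain, had the larger fitted change of the pair. Its levels were 160.5, 124.7, 243.0 and 244.9 CPM with DMSO and 201.3, 224.4, 443.5 and 314.6 CPM with IOX5. IOX5 samples 3 and 4 stood above all DMSO samples, and IOX5 samples 1 and 2 lay within the DMSO range. This gave a log2 fold change of 0.62 ± 0.292 (edgeR adjusted p = 0.28) without the block and 0.60 ± 0.0928 (adjusted p = 8.97e-04) with it. All 4 blocked fits without a number kept the call, at edgeR adjusted p from 3.72e-05 to 0.0126. For each read on *Csf2rb* there were 0.359, 0.278, 0.433 and 0.427 reads on *Csf2rb2* in the DMSO samples and 0.428, 0.362, 0.566 and 0.503 in the IOX5 samples. This ratio was higher with IOX5 in 4 of 4 numbers, by 0.24 to 0.39 on the log2 scale, but the groups overlapped and the mean difference of 0.32 did not pass a test that leaves the numbers out (two-sided exact permutation p = 0.2, adjusted p = 0.571 over 4 ratios; the smallest p for 4 against 4 is 0.0286). A sign-flip test within numbers gave an exact p = 0.125, the smallest that 4 pairs allow.

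Of the alpha chain genes, *Il3ra* (ENSMUSG00000068758, chr14:14346275-14356011, plus strand), which makes the receptor specific for IL-3, had 24.6, 17.9, 15.8 and 13.9 CPM with DMSO and 26.0, 24.2, 21.6 and 20.7 CPM with IOX5. All IOX5 samples exceeded DMSO samples 2, 3 and 4, and DMSO sample 1 lay within the IOX5 range. The log2 fold change was 0.36 ± 0.176 (edgeR adjusted p = 0.296) without the block and 0.37 ± 0.101 (adjusted p = 0.019) with it. The blocked call was lost without number 3 (edgeR adjusted p = 0.105) or number 4 (0.0686).

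*Csf2ra* (ENSMUSG00000059326, chr19:61223957-61228429, minus strand), the GM-CSF alpha chain, had 121.6, 135.9, 64.2 and 67.5 CPM with DMSO and 119.5, 216.4, 69.2 and 63.6 CPM with IOX5. Numbers 1 and 2 were high and numbers 3 and 4 low in both groups, opposite to *Kit* and *Flt3*. The log2 fold change of 0.27 ± 0.415 (edgeR adjusted p = 0.764) rested on IOX5 sample 2 and was -0.21 without it. With the block it was 0.18 ± 0.103 (edgeR adjusted p = 0.237), with a 95% interval from -0.044 to 0.40. Reads on *Csf2ra* per read on *Csf2rb* (difference -0.12 on the log2 scale, exact permutation p = 0.686) and on *Il3ra* per read on *Csf2rb* (0.10, exact permutation p = 0.857) differed by less than the sample spread. *Il5ra*, which encodes the remaining alpha chain, had 31 reads over all 8 samples and was not tested.

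For the G-CSF receptor gene *Csf3r* (ENSMUSG00000028859, chr4:126024550-126044440, plus strand), which marks the granulocyte lineage, number 1 was lowest and numbers 3 and 4 were highest in both groups. The levels were 21.6, 36.5, 51.8 and 54.0 CPM with DMSO and 17.0, 45.5, 53.0 and 51.4 CPM with IOX5. No difference was detected, and the 95% interval of the log2 fold change with the block was -0.21 to 0.21 (estimate 0.00044 ± 0.0970, edgeR adjusted p = 0.998). Without the block the estimate was 0.028 ± 0.377 (edgeR adjusted p = 0.978).

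*Il6ra* (ENSMUSG00000027947, chr3:89864059-89913196, minus strand), the IL-6 alpha chain, was the 1 receptor whose fitted level was lower with IOX5. It had 50.5, 83.9, 67.4 and 69.8 CPM with DMSO and 35.2, 82.9, 64.0 and 66.6 CPM with IOX5. Number 1 had the lowest level in both groups and number 2 the highest. The log2 fold change was -0.13 ± 0.243 (edgeR adjusted p = 0.809) without the block and -0.16 ± 0.0832 (adjusted p = 0.184; 95% interval -0.34 to 0.018) with it. Its partner *Il6st* had 73.5 to 175.9 CPM with DMSO and 48.4 to 114.9 CPM with IOX5, lower in 4 of 4 numbers, and fell in the blocked fit (-0.44 ± 0.0925, edgeR adjusted p = 0.0053) but did not pass without the block (adjusted p = 0.469). Reads on *Il6ra* per read on *Il6st* averaged 0.571 ± 0.145 with DMSO and 0.675 ± 0.0581 with IOX5 (n = 4 per group; exact permutation p = 0.286, adjusted p = 0.571). Within numbers this ratio was higher with IOX5 in 4 of 4, by 0.056 to 0.67 on the log2 scale (sign-flip test, exact p = 0.125).

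*Epor* (ENSMUSG00000006235, chr9:21958897-21963506, minus strand), the erythropoietin receptor gene, had 63, 10, 32 and 22 reads in the DMSO samples, or 4.44, 0.777, 2.60 and 1.70 CPM. IOX5 samples had 70, 27, 40 and 30 reads, or 5.59, 2.39, 3.12 and 2.60 CPM. Number 1 was highest in both groups, and the groups overlapped. Its log2 fold change was 0.52 ± 0.492 (edgeR adjusted p = 0.597) without the block and 0.57 ± 0.221 (adjusted p = 0.0824) with it, so that *Epor* was not called in either fit.

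Replicate number took a larger share of the variation than treatment in all 9 receptors. The number has more levels than treatment, so it takes a larger share even of random variation, and the shares were not scaled for this. The share of the number in the sum of squares of log2 CPM ran from 50.8% for *Il3ra* to 96.2% for *Csf3r*, against a median of 51.9% over all genes tested. Treatment took 40.1% for *Il3ra*, 32.8% for *Csf2rb2* and 29.4% for *Csf2rb*, then 18.7% for *Epor*, 18.4% for *Flt3* and 18.2% for *Kit*. It took 4.96% for *Il6ra*, 1.86% for *Csf2ra* and 0.0151% for *Csf3r*. The median treatment share over all genes tested was 18.0%.

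**Figure D3:**
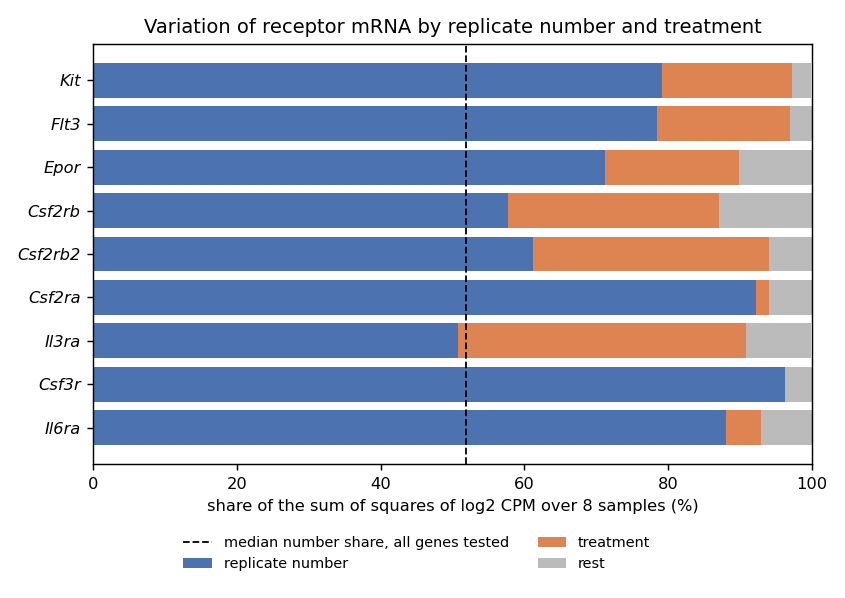
Share of the sum of squares of log2 CPM over the 8 samples (x axis, percent) taken by replicate number, treatment and the rest, for each receptor gene; the dashed line marks the median number share of all genes tested, 51.9%. The blue number share is the longest segment of each bar, and the orange treatment share is longest for Il3ra at 40.1%.

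Receptors differed in how they varied between numbers, and no grouping of them was computed. Over the 8 deviations from group means, which share replicate numbers and libraries, Pearson's r was 0.945 for *Kit* and *Csf2rb2*, 0.912 for *Kit* and *Flt3* and 0.942 for *Flt3* and *Csf2rb2*. *Csf2ra* ran against *Kit* (r = -0.908), *Flt3* (r = -0.894) and *Csf2rb2* (r = -0.827), and *Epor* ran against *Il6ra* (r = -0.829). *Csf2rb* went with *Csf2rb2* (r = 0.901), *Csf3r* (r = 0.88) and *Flt3* (r = 0.821). *Csf3r* went with *Il6ra* (r = 0.81) and against *Il3ra* (r = -0.819). By the same measure, the genes most like *Kit* among those with a mean of at least 10 CPM were *Cd200r3* (r = 0.995) and *Chst11* (r = 0.993). For *Csf2ra* they were *Tcf7l2* and *Ppt1* (r = 0.997 for both), for *Csf2rb2* *Ermard* (r = 0.994) and *Cdh1* (r = 0.993), and for *Csf2rb* *Slc23a2* (r = 0.992) and *Abhd2* (r = 0.989). *Flt3* was most like *Napsa* (r = 0.996) and *Ifitm1* (r = 0.994), and *Csf3r* most like *Arap2* (r = 0.997) and *Zfp979* (r = 0.991). *Il3ra* was most like *Slc25a1* (r = 0.984) and *Por* (r = 0.981), *Il6ra* most like *Gadd45b* (r = 0.997) and *Epb41l2* (r = 0.985), and *Epor* most like *Tnfrsf22* (r = 0.992) and *Bnip3l* (r = 0.984). These are the highest values among the genes compared. A lower bar of r = 0.9 was reached by 606 of 8920 genes with *Csf2ra*, 340 with *Kit* and 47 with *Il3ra*.

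Cell type markers moved with number and treatment as well. The summed level of 11 mast cell and basophil markers was 269.1, 187.4, 724.3 and 653.1 CPM in DMSO samples 1 to 4 and 329.0, 363.3, 1136 and 908.7 CPM in IOX5 samples 1 to 4, high in the same numbers as *Kit*, *Flt3* and *Csf2rb2*. All 8 of these markers that could be tested rose with IOX5 in the blocked fit and none passed without the block, and *Mcpt4* was at 0 in every sample. The sum of 10 monocyte and macrophage markers was 763.4 to 969.0 CPM with DMSO and 823.8 to 1594 CPM with IOX5, highest in IOX5 sample 2, which also had the highest *Csf2ra*. These markers did not all move the same way: 6 had a higher and 4 a lower fitted level with IOX5. In the blocked fit 3 were called higher and 1 lower, and without the block 0 were called. *Adgre1*, *Mertk* and *Ly6c2* rose with the block (edgeR adjusted p = 1.85e-04, 0.00279 and 0.00286). *Fcgr1* fell (log2 fold change -0.90 ± 0.124, edgeR adjusted p = 4.27e-04). All of these were chosen after their values were seen. The sum of 12 granulocyte markers, among them the progenitor-stage *Mpo* as the most abundant, was 4905 to 7796 and 5572 to 8781 CPM, and that of 10 stem and progenitor markers 819.4 to 1014 and 924.5 to 1148 CPM. In bulk RNA a change in the number of cells of a type and a change in RNA per cell cannot be told apart, and the part of these markers in the receptor values was not tested.

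Erythroid markers summed to 8.70 to 34.5 CPM with DMSO and 14.3 to 55.3 CPM with IOX5, lowest in number 2, where *Epor* was lowest too. Megakaryocyte markers, with *Gp1bb* at 0 in every sample, summed to 16.5 to 65.3 and 39.2 to 118.6 CPM, and dendritic cell markers to 31.6 to 35.7 and 37.2 to 53.9 CPM. Most of the megakaryocyte sum came from *Itga2b* (14.5 to 58.4 CPM with DMSO and 32.0 to 100.8 CPM with IOX5). Of the 7 dendritic cell markers only 2 had a mean of at least 1 CPM, and *Bst2* was the most abundant, so this sum does not speak for the list. Lymphoid markers were scarce: the B cell sum was at most 8.70 CPM, with *Ms4a1* at 0, and the T cell sum at most 0.260 CPM, with *Cd3g*, *Cd4* and *Cd8a* at 0.

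Transcripts of most ligands were too scarce to test. *Il3*, *Epo* and *Thpo* (thrombopoietin) had no read in any sample, and *Csf2* (GM-CSF) and *Csf3* (G-CSF) had 4 and 2 reads over all 8. Of 11 ligand genes 4 could be tested and 0 were called by edgeR without the block. *Csf1*, which encodes M-CSF, had 22.4 to 44.8 CPM with DMSO and 53.1 to 78.8 CPM with IOX5. These ranges did not overlap, as was so for 14.2% of all genes tested. Its log2 fold change was 0.73 ± 0.215 (edgeR adjusted p = 0.111) without the block and 0.74 ± 0.133 (adjusted p = 0.00215) with it. *Kitl*, which encodes the KIT ligand, was lower in 4 of 4 numbers, at 2.64 ± 0.847 CPM with DMSO and 1.70 ± 0.641 CPM with IOX5 (n = 4 per group), and fell with the block (edgeR adjusted p = 0.048; 0.341 without). *Il6*, named after its value was seen, rose in the blocked fit (log2 fold change 0.79 ± 0.200, edgeR adjusted p = 0.0139), with 0.777 to 13.6 CPM in the DMSO and 3.04 to 26.1 CPM in the IOX5 samples.

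Among 44 other cytokine and growth factor receptors, 37 could be tested, of which 1 was called higher and 0 lower without the block and 5 higher and 4 lower with it. Those higher with the block were *Crlf2*, *Il7r*, *Il1rl1*, *Il21r* and *Tnfrsf1b*, and those lower were *Il6st*, *Il1rap*, *Lifr* and *Osmr*. Of these, all but *Crlf2*, *Il7r* and *Il6st* were chosen after their values were seen. The 1 called in both fits was *Crlf2*, which encodes the TSLP receptor chain. It had 47.7, 41.2, 43.4 and 45.3 CPM with DMSO and 57.4, 64.3, 59.7 and 57.8 CPM with IOX5, so the groups did not overlap (log2 fold change 0.43 ± 0.0681, edgeR adjusted p = 0.0254; with the block 0.43 ± 0.0766, adjusted p = 0.00207). *Il7r*, whose product pairs with that of *Crlf2* to bind TSLP, had 2.18, 1.79, 0.811 and 1.77 CPM with DMSO and 4.39, 16.7, 4.68 and 3.38 CPM with IOX5. Every IOX5 sample was above every DMSO sample and sample 2 stood far above the rest (edgeR log2 fold change 2.14 ± 0.558, adjusted p = 0.0807; with the block 1.98 ± 0.317, adjusted p = 0.00111). Both genes were named for their low p, and groups without overlap were found for 14.2% of all genes tested. *Lifr* and *Osmr*, chosen after their values were seen because their products pair with gp130 as the IL-6 receptor does, fell in the blocked fit with *Il6st* (log2 fold changes -0.94 and -0.59, edgeR adjusted p = 0.00913 and 0.0498). Neither passed without the block (edgeR adjusted p = 0.387 and 0.747). *Il11ra1* and *Il27ra*, whose products also pair with gp130, were chosen after their values were seen too. They had log2 fold changes of 0.29 and 0.66 with the block, each higher in 3 of 4 numbers, and were not called (edgeR adjusted p = 0.172 and 0.273).

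Downstream of the receptors, the JAK and STAT genes showed small differences. Of 11, all tested, edgeR called 0 without the block and 1 with it: *Stat4*, named after its value was seen, rose (log2 fold change 0.67 ± 0.176, adjusted p = 0.0175). The lowest p-values without the block belonged to *Stat5b* (0.12 ± 0.0796, edgeR adjusted p = 0.431) and *Stat2* (0.14 ± 0.0950, adjusted p = 0.466). Of 30 adaptors and kinases 0 passed without the block, and 6 rose and 1 fell with it. *Btk*, a kinase of myeloid and B cells, had 137.7 to 144.3 CPM with DMSO and 155.5 to 162.8 CPM with IOX5 (edgeR log2 fold change 0.19 ± 0.0481, adjusted p = 0.0794; with the block adjusted p = 0.0453). *Sos1*, the exchange factor that activates RAS, had 52.1 to 57.9 and 40.4 to 52.0 CPM (edgeR -0.26 ± 0.0852, adjusted p = 0.136; with the block adjusted p = 0.0284).

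Inhibitors of signaling moved both ways: of 29 genes 1 rose and 1 fell without the block, and 4 rose (*Dusp5*, *Dusp6*, *Cish* and *Socs5*) and 3 fell (*Spred2*, *Spred1* and *Cbl*) with it. Of these, all but *Dusp5* and *Spred2* were chosen after their values were seen. *Dusp5*, which encodes a phosphatase of ERK and is itself induced by ERK signaling, rose from 18.2, 13.5, 19.8 and 18.1 CPM to 29.8, 28.7, 32.0 and 30.8 CPM (edgeR log2 fold change 0.80 ± 0.121, adjusted p = 0.0254). *Spred2*, which encodes an inhibitor of RAS-MAPK signaling, fell from 63.1, 67.6, 59.2 and 59.9 CPM to 42.7, 46.4, 48.7 and 42.2 CPM (edgeR log2 fold change -0.47 ± 0.0723, adjusted p = 0.0254). For both genes, which were named for their low p, the groups did not overlap, as was so for 14.2% of all genes tested.

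Of 24 genes known to respond to STAT5 or MAPK signaling, *Dusp5* alone passed without the block, and 6 rose and 0 fell with it. This list overlaps that of the inhibitors: *Dusp5*, *Dusp6* and *Cish*, which rose, are on both. *Pim2*, a survival kinase induced through STAT5, had 15.4 to 20.8 CPM with DMSO and 21.2 to 28.4 CPM with IOX5 (edgeR log2 fold change 0.51 ± 0.132, adjusted p = 0.0778; with the block adjusted p = 0.002). The median log2 fold change of the 24 genes with the block was 0.081, beside 0.014 over all genes tested. Of the 9 receptors 55.6% were called in that fit, of the other receptors 24.3%, of the adaptors and kinases 23.3%, of the inhibitors 24.1%, of the response genes 25.0%, of the 11 JAK and STAT genes 9.09% and of the 4 tested ligands 75.0%, beside 20.7% of all genes. Shares above that of the receptors were also found in marker lists. They were 66.7% of the 12 granulocyte, 60.0% of the 5 erythroid, 60.0% of the 5 megakaryocyte and all 8 of the mast cell and basophil markers tested. The erythroid and megakaryocyte lists hold 11 and 8 genes, so many of their markers were too scarce to test.

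**Figure D4:**
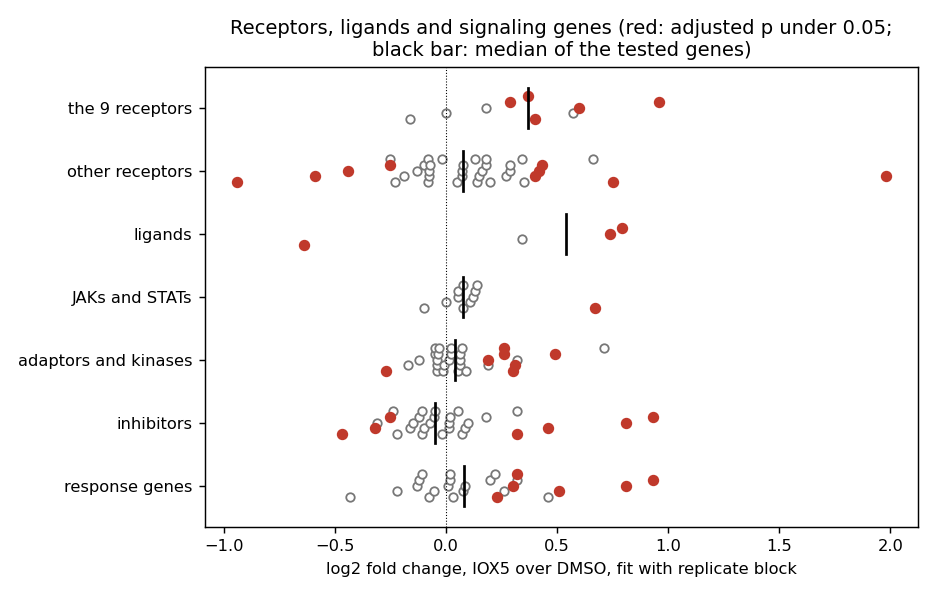
Log2 fold change of IOX5 over DMSO in the edgeR fit with the replicate block (x axis) for each tested gene of 7 lists (rows); red points have an adjusted p below 0.05, open points do not, and black bars are list medians. The median of the 4 tested ligands lies at 0.54 and that of the 9 receptors at 0.37; those of the other receptors, the JAKs and STATs, the adaptors and the response genes lie between 0.039 and 0.081, and that of the inhibitors at -0.048.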

How the data were processed

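RNA-seq was made from 4 DMSO and 4 IOX5 samples. The authors trimmed reads (Cutadapt 1.18, per the submitters' processing notes), aligned them to GRCm38 with HISAT2 2.2.1 and counted reads per Ensembl gene with HTSeq 2.0.1. The deposited values are raw counts on the reverse strand; 20.6% to 22.6% of the reads listed per sample were not assigned to a gene and stayed out of library sizes. Of 54838 IDs, 54809 matched GENCODE M21.

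Counts were filtered (filterByExpr), TMM-scaled and tested with edgeR 4.0.16 (quasi-likelihood, Benjamini-Hochberg adjustment over 12405 genes, R 4.3.3), without a block. Same-numbered samples deviated together from their group means (r = 0.758, 0.744, 0.732 and 0.636 for numbers 1 to 4; the highest r with another number was 0.212 for numbers 1 and 2 and 0.685 for numbers 3 and 4, above the r of number 4 with itself). On this check, a second fit blocked on the number is printed where it changes a call; the labels do not say what the numbers share. Log2 CPM used a prior count of 2. Fold changes carry standard errors. Ratios were compared by exact permutation over 70 assignments. DESeq2 1.42.0, limma 3.58.1 (voom), other scalings and filters, and fits without single samples were alternatives. The fits were tested on simulated counts that held treatment effects but no effect of the replicate number. Those counts cannot decide between the fits with and without the block.

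The 9 genes and all lists were chosen with earlier results of these data known. Named genes are the 9, plus, from each pathway list, those called without the block (at most 5) and the 2 of lowest p. Other genes given with a test are said to be chosen later, except *Il6st*, which was part of a planned ratio. Similarity was Pearson's r of deviations from group means.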

Additional observations from a re-analysis of the deposited data

How the results depend on the processing

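Over all genes tested, 96 were called higher and 155 lower by edgeR without the block. The counts were 1394 and 1170 with the replicate block, 489 and 602 with DESeq2, 950 and 777 with DESeq2 and the replicate block, and 426 and 610 with limma voom, and 73 were lower with no filter on low counts. Leaving out 1 sample without the block gave 0 to 130 higher and 0 to 333 lower; both were 0 without DMSO sample 3, DMSO sample 4 or IOX5 sample 3, where 1969, 1846 and 2111 genes had an unadjusted p below 0.05. Leaving out 1 number with the block gave 994, 1119, 642 and 1355 higher and 650, 1016, 403 and 1058 lower (without numbers 1 to 4).

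Receptors called higher were 0 without the block under every alternative run (of 9, or of 8 with at least 10 counts in every sample and 7 with DESeq2), 5 with the replicate block, 4 with DESeq2 and the block, and 2 to 5 when 1 number was left out of the block (2 without number 3, 3 without number 4); none was called lower in any fit. Pathway genes called were 2 higher and 1 lower without the block, 21 and 9 with the replicate block, 11 and 2 with DESeq2, 18 and 5 with DESeq2 and the block, 7 higher with limma voom, 0 to 2 and 0 to 1 without single samples, and 19, 14, 11 and 18 higher and 5, 11, 3 and 5 lower without numbers 1 to 4 in the block.

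Uncalled log2 fold changes that turned direction were those of *Csf2ra* (-0.21, without IOX5 sample 2, to 0.47 without single samples, -0.0011 with the block without number 2), *Csf3r* (-0.22 with limma voom, -0.19 to 0.29 without single samples, among them -0.024, -0.016, -0.11 and -0.089, and -0.10 to 0.084 with the block without single numbers, among them -0.016) and *Il6ra* (-0.30 to 0.067 without single samples). The ratio of *Csf2ra* to *Csf2rb* ranged from -0.47 to 0.19 without single samples (0.074, 0.13 and 0.12 in other subsets) and that of *Il3ra* to *Csf2rb* from -0.088 to 0.32 (also -0.0039 and -0.077), all on the log2 scale. The cause of these changes was not tested. The fold changes of *Kit*, *Flt3*, *Csf2rb*, *Csf2rb2*, *Il3ra* and *Epor* were above 0 in every fit run. The 6 to 70 reads per sample on *Flt3* and *Epor* limit their precision.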
